A study of Mus musculus with 6 samples.

Results

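Circular RNAs (circRNAs) whose ends lie at least 50000 bases apart in the genome, which are classed as exonic in the authors' deposited table and carry no entry of the circRNA catalogue circBase there, were described in mouse GC-2 cells with and without bisphenol A (BPA). The span was the end less the start plus 1, and 267 of 9158 listed circRNAs, 2.92%, met the rule. GC-2 spd(ts) is an established line derived from mouse spermatocytes. It was starved of serum for 12 h and then given complete medium (10% serum) for 48 h, containing 120 µM BPA or, in the control, the vehicle alone, 0.1% dimethyl sulfoxide. BPA is a monomer of polycarbonate plastic. RNA of each culture was divided among circRNA, miRNA and mRNA libraries, with 1 library per group, and the circRNA libraries were made from RNA freed of ribosomal RNA and treated with RNase R, which degrades linear RNA. Every difference below therefore sets 1 BPA library against 1 control library and has no replicate check.

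A circRNA forms when the 5′ splice site (donor) at the end of an exon is joined backwards to the 3′ splice site (acceptor) at the start of the same or an upstream exon. The introns between these ends are usually removed, so a circRNA can be short although its ends lie far apart. Closed ends protect it from exonucleases such as RNase R. Most of its sequence is shared with the linear mRNA, and only reads across the back-splice junction are specific to the circle. Such reads were counted here as back-splice events.

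The junction sequences of the long-span circRNAs with the most events are shown because the linear transcript holds the joined exons in opposite order. Unless these exons are adjacent, other exons lie between them in the linear transcript. They are given for circRNAs with at least 5 events whose ends are coding or belong to a noncoding RNA, from the RefSeq GRCm38.p6 genome. Lower case marks the last 25 bases of the exon that gives the donor, and capitals mark the first 25 bases of the exon that gives the acceptor.
Cpq chr15:33249926-33302547 plus strand: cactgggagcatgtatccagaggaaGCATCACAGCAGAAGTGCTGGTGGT
Cpq chr15:33249926-33381447 plus strand: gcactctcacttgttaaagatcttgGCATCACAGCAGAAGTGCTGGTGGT
Pvt1 chr15:62107148-62175548 plus strand: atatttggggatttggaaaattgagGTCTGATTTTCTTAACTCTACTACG
Cachd1 chr4:100864982-100918148 plus strand: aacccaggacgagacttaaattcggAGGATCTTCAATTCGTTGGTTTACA
Cpeb3 chr19:37087538-37139221 minus strand: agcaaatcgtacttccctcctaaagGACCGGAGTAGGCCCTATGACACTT
Cpeb3 chr19:37068173-37139221 minus strand: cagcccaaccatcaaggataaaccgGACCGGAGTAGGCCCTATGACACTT
Diaph3 chr14:86852072-86910123 minus strand: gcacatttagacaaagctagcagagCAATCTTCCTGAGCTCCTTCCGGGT
The pair of Cpq circRNAs share the capitals and differ before them, since 1 acceptor was joined to different donors. The same holds for the Cpeb3 pair.

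All 267 circRNAs were classed as exonic, as the rule requires. In 264 of them both ends were exon boundaries of 1 annotated transcript of GENCODE M21. The other 3 were Srpk2 with 0 events in control and 2 with BPA, and a pair from Aak1 with 0 and 1 each. Of the 264, 261 came from protein-coding genes and 3 from long noncoding RNAs, of which 2 belonged to Pvt1 and 1 to Gm12153. The genomic bases just before the acceptor end were AG and those just after the donor end were GT in 263 of 264. In 2 of these, from Foxp1 and Plcb4, the chosen transcript starts at the acceptor end and has no intron there. The exception, from the ubiquitin ligase gene Nedd4, had GG in place of AG. The splice sites of the most abundant circRNA of each of 3 genes are shown for these dinucleotides, which are in capitals. An acceptor line holds 20 intron and 3 exon bases, and a donor line 3 exon and 6 intron bases.
Cpq acceptor: tgcttaacttttacttctAGgca
Cpq donor: gaaGTgagt
Etv6 acceptor: tctgctttgtgtttccccAGcct
Etv6 donor: tgcGTgagt
Gli3 acceptor: ggcactgtggtgttttatAGgga
Gli3 donor: accGTaagt
The donor hexamer GTAAGT, read at the donor on the strand of the gene, stood at 22.3% of the long-span circRNAs. It stood at 19.1% of exonic circRNAs outside circBase with shorter spans, and at 147 of 699 exonic circRNAs in circBase. It is present at Gli3 and absent at Cpq and Etv6.

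The spans ran from 50149 to 246515 bases with a median of 68288, and 55 were at least 100000. Exon sequence made up little of them. The exons between the ends summed to a median of 558 bases, against 447 for the 7791 circRNAs with shorter spans outside circBase and 432 for 699 in circBase that lay on 1 transcript. These sums assume that every annotated exon of the chosen transcript is kept and every intron removed, which events do not show. Introns were 99.3% of the long span at the median and at least 89.8%. In 167 of the 264 circRNAs 1 intron alone held over 50% of the span. Of the 264, 26 had 2 exons, 137 had 3 to 5, 83 had 6 to 10 and 18 had more. The smallest exon sum was 115 bases, from the phospholipase gene Plcb4, and the largest 6188 bases, from the histone methyltransferase gene Ash1l. The dynein gene Dync2h1 had the most exons, 39.

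**Figure D1:**
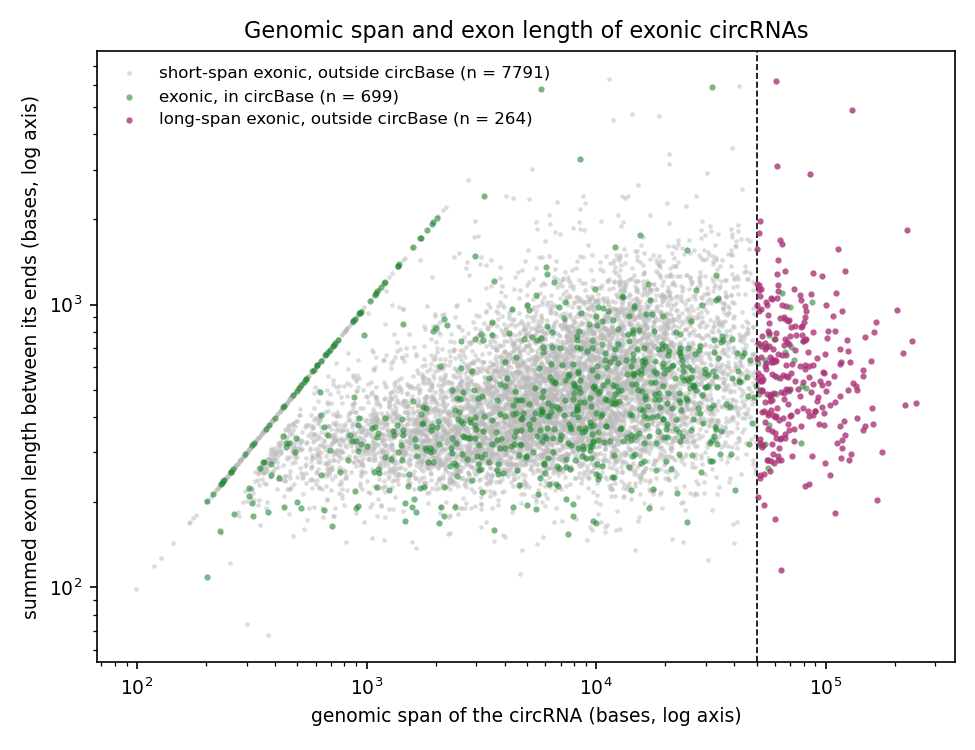
Genomic span (x axis, bases, log scale) and summed exon length between the ends (y axis, bases, log scale) of each exonic circRNA on 1 transcript. Purple points are long-span circRNAs outside circBase (n = 264), grey ones have shorter spans (n = 7791), green ones are in circBase (n = 699), and the dashed line is the rule's 50000 bases. Purple points lie in nearly the same range of exon length as the others, with medians of 558, 447 and 432 bases.

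The first exon of the circle was exon 2 of the transcript in 119 of 264 long-span circRNAs (45.1%), exon 3 in 46, exon 4 or later in 97 and exon 1 in 2. Exon 2 was first in 31.2% of shorter exonic circRNAs outside circBase and in 43.9% of those in circBase. Among the 23 circBase entries of at least 50000 bases it was first in 47.8%. The final exon of the transcript was never the last exon of a long-span circle. The introns outside the ends, where the transcript has one, had medians of 21652 bases upstream and 19457 downstream, against 5594 and 3944 for shorter spans outside circBase and 15190 and 11831 in circBase. For the 23 circBase entries of at least 50000 bases they were 15945 and 26027. In the 1000 bases next to each end, 20.2% of bases at the median were masked as repeats, against 26.4% for shorter spans and 25.1% in circBase. For the 23 long circBase entries the median was 20.8%, close to that of the long-span circRNAs. A stretch of 20 bases in 1 flank whose reverse complement lay in the other was found in 3 of 262 long-span circRNAs, 1.15%. They came from Asap1, Bcas3 and Ttbk2. The share was 5.46% of 7781 with shorter spans and 4.30% of 697 in circBase, and it was 1 of the 23 long circBase entries. These shares were not tested against each other, since circRNAs of 1 gene share introns.

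Each circRNA library was shallow. Control held 12909 back-splice events and BPA 17586, and a count of 0 allows up to 0.0232% and 0.0171% of them. The long-span circRNAs had 232 events in control, 1.80% of the library (exact binomial 95% interval 1.58 to 2.04), and 305 with BPA, 1.73% (1.55 to 1.94). The share was nearly equal, and the intervals overlap. With scaling by the trimmed mean of M-values (TMM), which sets the libraries level over circRNAs seen in both, the log2 ratio of the summed events, BPA over control, was 0.12 (-0.13 to 0.37), and by library total it was -0.05 (-0.30 to 0.20). All intervals here cover only counting error, and amplified reads that carry no molecular identifier are not independent molecules.

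Over the same libraries the TMM-scaled log2 ratio was 0.22 (0.18 to 0.26) for shorter exonic circRNAs outside circBase and 0.10 (0.04 to 0.16) for those in circBase. By library total these were 0.05 (0.01 to 0.09) and -0.07 (-0.13 to -0.01). The direction of the long-span sum thus changed with the scaling, and both of its intervals include 0. By span, the 143 circRNAs of 50 to 70 kb had 118 events in control and 155 with BPA, a ratio of 0.12 (-0.23 to 0.48). The 69 of 70 to 100 kb had 47 and 83 events and a ratio of 0.55 (0.01 to 1.10), and by library total 0.37 (-0.16 to 0.92). The 55 of 100 kb or more had 67 events in each library and a ratio of -0.27 (-0.78 to 0.24).

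Most long-span circRNAs were seen once. Of the 267, 174 (65.2%) rested on 1 event, 64 of them in control and 110 with BPA, 46 on 2 events and 32 on 3 or 4. At least 5 events were seen for 15, and at least 10 for 4. The 4 most abundant held 17.1% of the 537 events. Among shorter exonic circRNAs outside circBase 57.5% rested on 1 event, and in circBase 21.2%. For the 23 circBase entries of at least 50000 bases this was 47.8%. Control detected 131 of the long-span circRNAs and BPA 176. If the BPA library is thinned to the control total, 141 are expected, close to the 131 of control.

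Both libraries detected 40 of the 267, 15.0% (exact binomial 95% interval 10.9 to 19.8), whereas 91 were seen in control alone and 136 with BPA alone. Of all 9158 circRNAs 22.2% were in both, whereas 2673 were seen in control alone and 4452 with BPA alone. Of the 7870 with shorter spans 19.3% were in both, and of the 704 in circBase 62.2%. Of the 23 circBase entries of at least 50000 bases 43.5% were in both (23.2 to 65.5). The share follows the number of events. Of long-span circRNAs with 3 or 4 events 56.2% were in both libraries, and of those with 5 to 9 events 10 of 11. Among shorter spans these shares were 49.5% and 82.3%. A circRNA seen in 1 library alone is therefore mostly one with 1 or 2 events, and its absence from the other was not detectable at this depth.

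**Figure D2:**
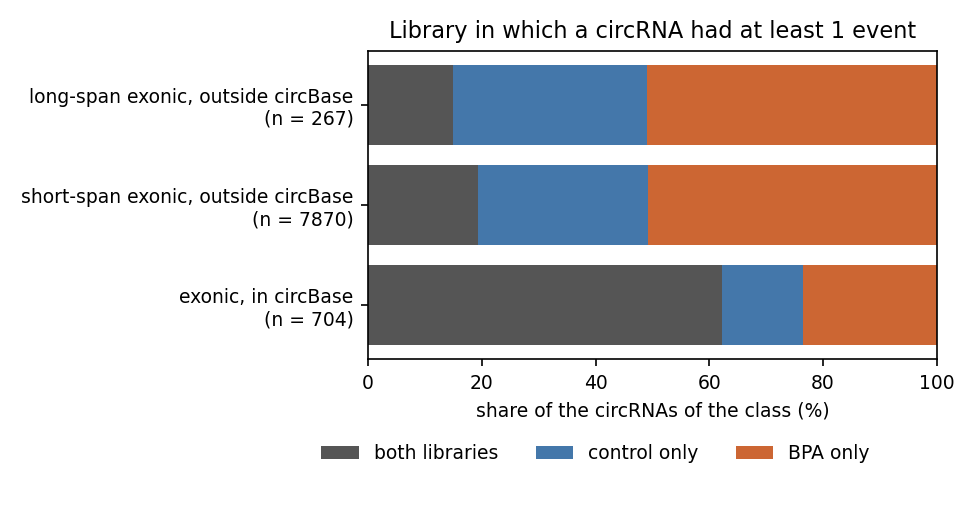
Share of circRNAs (x axis, %) detected with at least 1 event in both libraries (grey), in control alone (blue) or in BPA alone (orange), for 3 classes of exonic circRNA (y axis). The long-span class has 15.0% in both, near the 19.3% of shorter spans and below the 62.2% of circBase entries of any span.

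The long-span circRNAs came from 181 genes on 20 chromosomes. All 181 were at least 50000 bases long in the annotation, as the rule requires, and the median gene length over the 264 circRNAs was 255944 bases. A single long-span circRNA came from 122 genes, 2 from 42, 3 from 11 and 4 or more from 6. The latter included Phkb with 5, and Atxn1, Cpeb3, Cdk14 and Diaph3 with 4 each. In 161 of the 181 genes other circRNAs were also listed. Over all of these genes the long-span circRNAs held 12.5% of 4286 circular events. Their acceptor was also used by another listed circRNA in 154 of 264 (58.3%), and their donor in 130 (49.2%). These shares were 32.5% and 26.0% for shorter spans outside circBase, 46.4% and 34.5% in circBase, and 78.3% and 60.9% for the 23 circBase entries of at least 50000 bases. In 61 neither end was used by another circRNA. The acceptor served a circBase entry in 44 and the donor in 35.

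**Figure D3:**
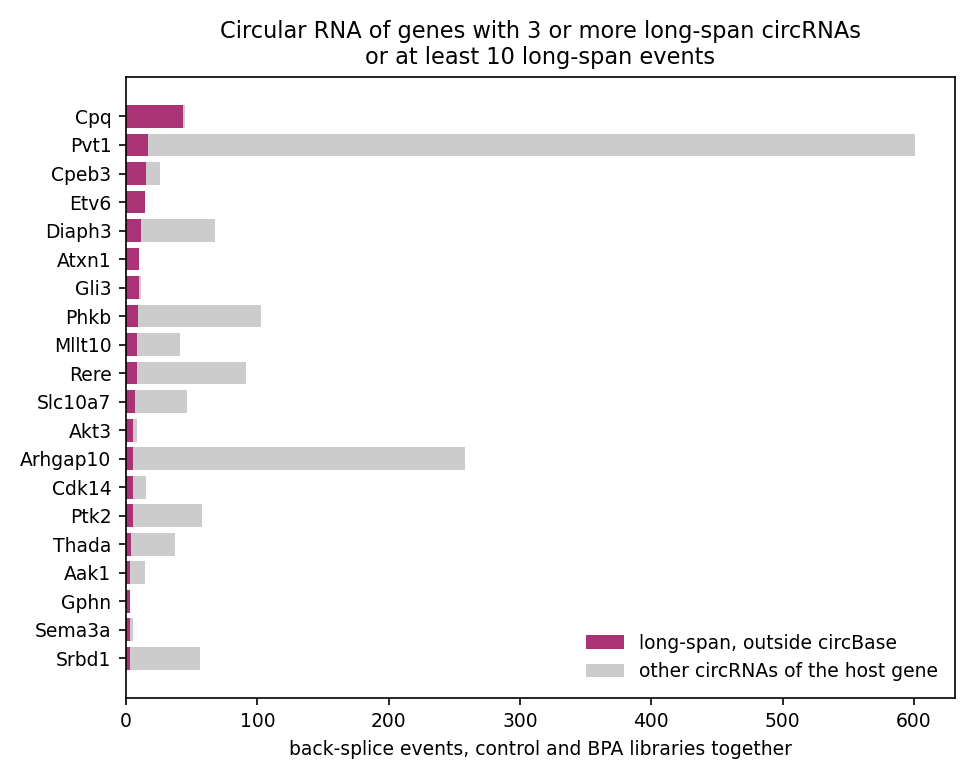
Back-splice events of both libraries together (x axis) for genes with at least 3 long-span circRNAs or at least 10 long-span events (y axis), split into long-span circRNAs outside circBase (purple) and all other circRNAs of the gene (grey). Cpq, Etv6 and Atxn1 are mostly or fully purple, whereas Pvt1 has 17 of 601 events in long-span circles.

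Among enzymes, Cpq, a secreted peptidase also known as carboxypeptidase Q, gave the most abundant circle. Its exons 3 and 4 of 8 (chr15:33249926-33302547, 416 bases of exon) had 11 events in control and 25 with BPA, for a log2 ratio of 0.88 (-0.16 to 2.08). Circles of exons 3 to 5 had 4 and 3 events. The 1 other circRNA of Cpq had 0 and 2 events, so 95.6% of the circular events of this gene were long-span. The linear Cpq mRNA had 480 and 597 reads, a log2 ratio of 0.20 (0.03 to 0.38).

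Phkb, a regulatory subunit of phosphorylase kinase, gave 5 long-span circles with 4 events in control and 5 with BPA. They were 8.74% of its circular events. The largest of them by events, exons 2 to 7, had 1 and 4 events, while the leading circRNA of the gene, exons 3 to 5 with a span of 4177 bases, had 15 and 22. The tRNA methyltransferase gene Trmt11 and the glycosyltransferase gene B3glct gave the shortest spans that met the rule, 50149 bases with 0 and 1 events and 50180 bases with 1 and 0. Just outside it lay Rbms1 with 49784 bases and 0 and 1 events, and Gsk3b with 49735 bases and 0 and 3.

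Among regulators of transcription and chromatin, Etv6, a repressor of the ETS family, had 7 events in control and 6 with BPA for a circle of exons 2 and 3 (chr6:134066307-134137417), a log2 ratio of -0.48 (-2.34 to 1.30). Both circRNAs listed for Etv6 were long-span, with 7 events in each library in all. Gli3, a transcription factor of the hedgehog pathway, had 2 and 6 events for exons 2 and 3 (chr13:15478000-15548642), a ratio of 1.10 (-1.17 to 4.65). Ankrd11, an ankyrin-repeat cofactor of chromatin, had 4 and 3 events for exons 2 to 4 (chr8:122908668-122974792). Stag1, a subunit of cohesin, had 3 and 2 for exons 2 to 5 (chr9:100663250-100738142). In none of these 4 did the counting interval of the ratio leave out equality.

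Atxn1, which encodes ataxin-1, a partner of transcriptional repressors, had 4 circRNAs and all were long-span, with 6 events in control and 4 with BPA. Exons 2 to 5 spanned 221461 bases and had 2 and 1 events, exons 2 to 4 had 1 and 2, exons 2 and 3 had 1 and 1, and exons 3 and 4 had 2 and 0. They overlap, and 3 of them start at the same exon. Zfp407, a zinc-finger protein gene, had 1 and 3 events for exons 3 to 8 over 237179 bases. Its exons 4 to 8, over 116629 bases, had 0 and 4.

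Pvt1, a long noncoding RNA gene next to Myc, had a circle of exons 2 and 3 with 8 events in control and 5 with BPA (chr15:62107148-62175548), a log2 ratio of -0.90 (-2.91 to 0.84). A longer circle from the same acceptor, ending at 62175926 and matched to another transcript, had 1 and 3 events. The single exon 2, a circBase entry of 318 bases with the same acceptor, had 287 and 225 events. Long-span circles were thus 2.83% of the 601 circular events of Pvt1, and the linear reads were 274 and 414, a ratio of 0.48 (0.26 to 0.71). The exon 2 and 3 circle was lower and the linear RNA higher in the BPA library, but the interval of the circle includes the value of the linear RNA.

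Cpeb3, an RNA-binding protein that binds the cytoplasmic polyadenylation element, had 3 and 4 events for exons 3 to 7 and 2 and 4 for exons 3 to 8. These are the pair with the shared acceptor shown above. Its 4 long-span circles had 6 events in control and 9 with BPA, 57.7% of its circular events.

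Among cytoskeleton and signalling genes, Diaph3, a formin that extends actin filaments, had 1 event in control and 5 with BPA for exons 19 to 22 (chr14:86852072-86910123), a log2 ratio of 1.60 (-1.11 to 7.61). Its 4 long-span circles had 3 and 8 events in all, beside 10 and 10 of a shorter circle of exons 21 and 22. Cdk14, a cyclin-dependent kinase gene, had 4 and 1 events over 4 long-span circles, and Asap1, a GTPase-activating protein of Arf, had 0 and 4 for exons 2 to 5 over 158430 bases. With 3 counts in place of 0 the latter was 1.10-fold higher, and its interval includes equality. The longest span, 246515 bases, belonged to exons 4 to 7 of the F-box gene Fbxl17, with 3 events in control and 0 with BPA. A circle of its exons 4 to 6 from the same acceptor had 0 and 2 events. Other long spans rested on 1 event with BPA, as for the trafficking protein gene Nbea (226101 bases) and the kinase gene Dclk1 (203953 bases).

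Cachd1, a membrane protein gene related to subunits of calcium channels, had 7 events in control and 0 with BPA for exons 2 to 4 (chr4:100864982-100918148). With 3 counts in place of 0 it was 2.82-fold lower, a value that leaves out the counting error of the 7 events. The upper end of its log2 interval, which includes that error, was -0.80. Among the 15 circRNAs with at least 5 events it was the 1 whose interval left out equality. The share of all circRNAs with as many events whose interval does so is not given here, so this count does not set Cachd1 apart. The linear Cachd1 mRNA had 2337 and 1744 reads, a log2 ratio of -0.53 (-0.62 to -0.44). In the authors' deposited table Cachd1 had the smallest p-value of the long-span circRNAs, 0.0513, with an adjusted value of 0.865, and 0 of the 267 were under 0.05. Of all 9158 circRNAs in the authors' deposited table, 25 (0.273%) were under 0.05 before adjustment and 0 after it.

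**Figure D4:**
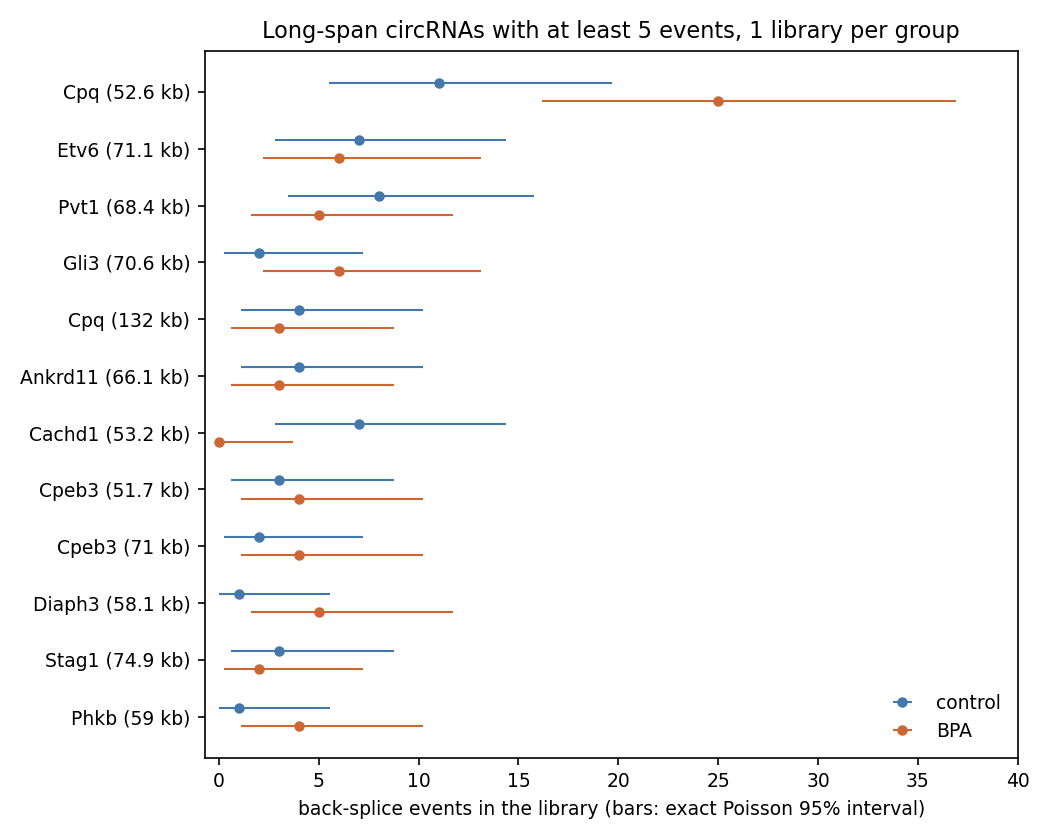
Back-splice events (x axis) in the control (blue) and BPA (orange) library for 12 of the 15 long-span circRNAs with at least 5 events in both together (y axis, gene and span). Points are counts of 1 library and bars are exact Poisson 95% intervals. The bars overlap for each circRNA plotted, and Cachd1 with 7 and 0 events lies apart from the others by its count of 0.

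Of the 4 long-span circRNAs with at least 10 events, 0 differed by 2-fold or more in either direction. Of the 457 listed circRNAs with that many events, 17.7% were higher by this measure in the BPA library and 10.7% lower. Their median log2 ratio was -0.28, against 0.16 over the 457. With at least 5 events, 4 of 15 were higher by 2-fold or more and 1 was lower, against 27.4% and 15.4% of 1164. The higher ones included Gli3, Diaph3 and Phkb, each with at most 6 events in a library, and the lower one was Cachd1. Scaled by library total, Gli3 fell short of 2-fold (0.93) and Pvt1 passed it (-1.07). The median of the 15 was -0.09, also with Cachd1 at its bound, with 7 above 0 and 8 below, and that of the 1164 was 0.21. These counts are too small to set the long-span circRNAs apart from the rest.

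The depth of the mRNA libraries was 32312872 reads for control and 33071378 for BPA, and all 181 host genes were listed. Of these, 180 had at least 10 reads. The median log2 mRNA ratio of the 180 was 0.00, with 91 above 0 and 89 below, beside 0.02 over all 16870 genes with as many reads and -0.02 over the 3680 of them that are at least 50000 bases long. Wdr25 (40 and 136 reads) was higher by 2-fold or more, and 4 hosts were lower, Tmem164 (1148 and 293), Brinp3 (245 and 120), Ube2cbp (224 and 110) and Fndc3b (5615 and 2807). Of all genes 6.88% were higher and 4.61% lower by this measure. Each long-span circRNA of these 5 hosts had at most 2 events in a library. The hosts had a median of 2455 reads in both libraries together, against 1978 for genes of at least 50000 bases and 3705 for genes of that length with other exonic circRNAs only.

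**Figure D5:**
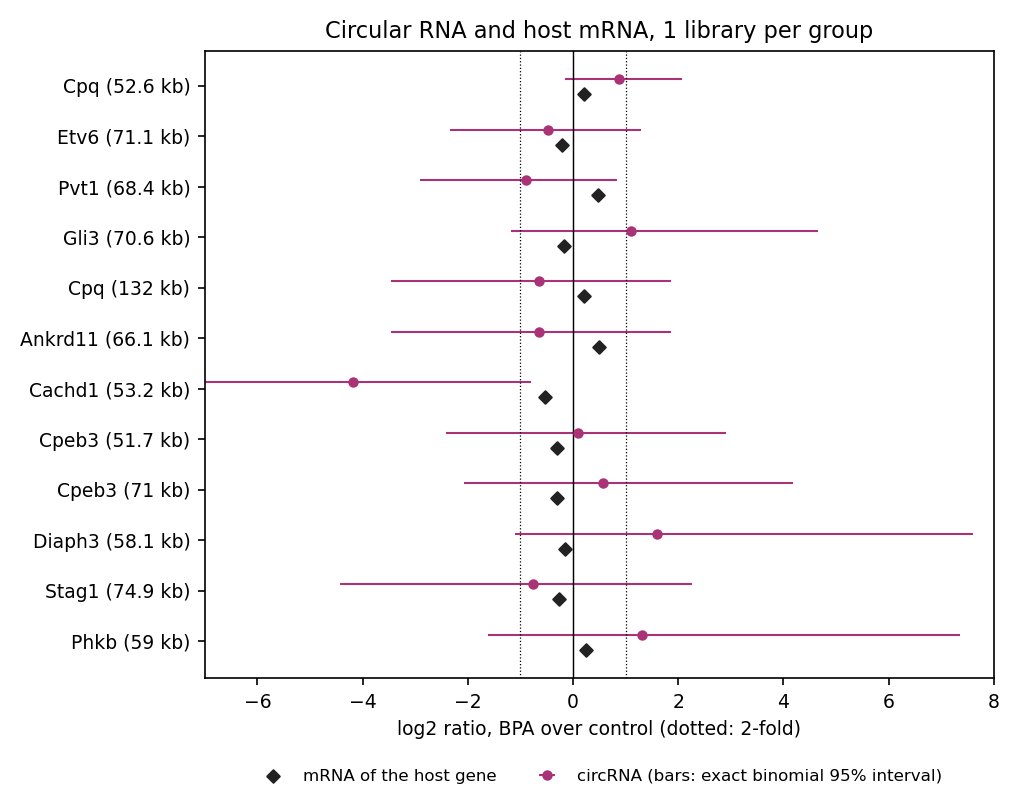
Log2 ratio of BPA over control (x axis) for 12 of the 15 long-span circRNAs with at least 5 events (purple points, with exact binomial 95% intervals) and for the mRNA of the same gene (black diamonds), by gene and span (y axis). Dotted lines mark 2-fold, and the Cachd1 interval has no lower end. The diamonds lie between -0.53 for Cachd1 and 0.49 for Ankrd11, inside the circRNA interval in each gene plotted but Cachd1.

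Factors linked to the formation or decay of circRNAs were listed for 30 of 31 genes, and 28 had at least 10 reads. None of the 28 was 2-fold apart, and their median log2 mRNA ratio was -0.19. Adar, an editing enzyme of double-stranded RNA, had 1549 and 2922 reads (0.80), and the splicing repressor Ptbp1 had 13381 and 9071 (-0.67), the lowest. Qk, a factor that promotes circularisation, had 6444 and 6849 reads (-0.02). Their part in the circRNA values was not tested.

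The labelled cell type was checked against its markers, and few germ cell markers were detected, while fibroblast-like markers were abundant. Of 14 spermatocyte and germ cell markers only 3 were listed in the mRNA table, Hspa2 with 411 and 588 reads, Ddx4 with 0 and 9, and Sycp3 with 6 and 0. Of 7 fibroblast-like markers 6 were listed with 187792 reads in control and 103757 with BPA together, and 4 of them were at least 2-fold lower. Of all 16870 genes with at least 10 reads 4.61% were lower by this measure and 6.88% higher. The 4 Sertoli markers had 2366 and 2379 reads in all, mostly of Gata4 (1959 and 1795), and 2 of them were higher by 2-fold or more at low levels, Amh with 10 and 33 reads and Wt1 with 8 and 26. The median log2 ratio of the 4 Sertoli markers was 0.90, with Gata4 at -0.24 and Sox9 at 0.32. Of 4 Leydig markers 2 were listed, with 1800 and 2332 reads in all, mostly of Nr5a1 (1731 and 2242). The listed epithelial markers had 37 and 22 reads, and the listed leukocyte markers 150 and 236. The part of these differences in the circRNA values was not tested, and in bulk samples fewer cells of a type and less RNA per cell cannot be told apart.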

How the data were processed

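The submitters' processing notes list STAR (circRNA, mRNA), StringTie (mRNA only) and the builds GRCm38 and mm10. Neither the circRNA caller nor the read counter is given in the sources used here. The circRNA values that the authors deposited were log2(x + 1), where x was even within 0.001 in all 9158 rows, so each step of 2 was taken as 1 event. If a step stands for 2 independent reads, the intervals are too wide. The deposited mRNA log2 values were whole multiples of 1 step per library and gave whole reads. The authors' p-values, per the file headers, are quoted only.

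Ratios of single circRNAs used 0.5 added events, and ratios of summed events and all intervals used none. TMM factors (1.06 control, 0.942 BPA) were computed over all circRNAs. The mRNA ratios used a pseudocount of 1 on the deposited values. TMM uses only circRNAs seen in both libraries. Exact binomial intervals came from SciPy 1.17.1, and a fold of 2 was counted at 10 or more events or reads. The ratio and its interval were tested on simulated Poisson counts, only for circRNAs with at least 10 observed events. The simulation thus did not cover circRNAs with fewer events, which most long-span circRNAs are. Ends were matched to GENCODE M21, preferring protein-coding, then listed, then longest transcripts. With 1 library per group no test was made.

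The members and lists were chosen with earlier results of these data known. Named circRNAs were the 12 with the most events, the 6 longest, the 6 longest with at least 3 events, up to 2 for each gene with at least 4, up to 5 per direction by ratio with at least 5 events, and those nearest the span threshold. Others named by count or extreme were chosen after their values were seen. Some circRNAs that met this rule are not reported here by name and are not plotted by gene. The miRNA libraries were not used.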

Additional observations from a re-analysis of the deposited data

How the results depend on the processing

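The log2 ratio of the summed long-span events was 0.12. It was 0.39 with median-of-ratios size factors, which were equal for both libraries and so left depth in, and -0.27 with spans of at least 100000 bases. The cause of the latter was not tested. It ranged from -0.06 to 0.36 under the library total, spans of at least 20000 bases, at least 2 events, without the most abundant circRNA, and with both ends on 1 transcript. No circRNA was at least 2-fold higher with at least 10 events, 4 were with at least 5, and 3 with at least 5 by library total, a setting chosen after seeing the data. None was at least 2-fold lower with at least 10 events, 1 was with at least 5, 1 by library total (Pvt1), and 2 by library total with at least 5. With at least 20 events, or 1 event added, both counts stayed at 0.

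The share detected in both libraries was 15.0%, and 16.4% and 17.7% with spans of at least 100000 and 20000 bases. BPA over control detection was 1.34, and 1.07 at equal depth. The host mRNA median was 0.00 under each pseudocount and filter tried. Of 30 alternative values for 15 circRNAs all lay inside their counting interval. Those intervals are far wider than the shifts these settings make, so this outcome is no check of the ratios. The sign of 1, the Cpeb3 circle of exons 3 to 7, changed, from 0.09 to -0.08 by library total. No paired analysis was possible because each group has 1 library. No library could be left out for the same reason.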
